A study of Homo sapiens with 7 samples.

Results

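The genes examined encode enzymes of the urea cycle and of amino acid catabolism. All 46 members were chosen by name, from a list of enzyme genes, with earlier results of these data known. Each was found once by its symbol among the 58174 genes of the deposited table. Their levels come from total RNA sequencing of Huh-7 cells that received control siRNA (siC, 3 libraries) and from those given an siRNA pool against IGF2BP1 (siIGF2BP1, named siImp1 in the sample titles, 4 libraries). Huh-7 is a cell line derived from a human hepatocellular carcinoma, and cells of both groups were harvested 72 h after transfection. IGF2BP1 is an oncofetal RNA-binding protein that protects target transcripts from decay, and the study asked which transcripts depend on it. The knockdown was made with 1 pool in 1 cell line, and the labels do not say whether libraries of a group came from separate cultures, so p-values measure the spread between these libraries, which may be technical.

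The liver is the organ in which most amino acid nitrogen is disposed of. Aminotransferases and glutamate dehydrogenase pass amino groups to ammonia and aspartate, and the urea cycle joins both into urea. In the cycle, CPS1 makes carbamoyl phosphate in the mitochondrial matrix, OTC transfers it to ornithine, ASS1 and ASL build and cleave argininosuccinate in the cytosol, and ARG1 hydrolyses arginine to urea and ornithine. NAGS makes N-acetylglutamate, without which CPS1 is inactive. The carbon skeletons are broken down by routes specific to each amino acid, and several steps have a liver isozyme and a second isozyme used in other tissues. In the liver lobule, urea cycle enzymes are richest around the portal vein, whereas glutamine synthetase (GLUL) and ornithine aminotransferase (OAT) are richest around the central vein.

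Libraries held from 12826550 to 33212205 reads on genes. IGF2BP1 itself was at 82.2 ± 2.03 FPKM in siC and 15.8 ± 0.583 FPKM in siIGF2BP1. FPKM is the number of fragments scaled by gene length and library size. The length is 1 value per gene (17600 bases for KYNU) and need not be that of the transcript expressed. Levels of different genes therefore compare only roughly. Values with ± are means and SD over libraries, with n = 3 for siC and n = 4 for siIGF2BP1. The hepatocyte markers fixed for this check (10 genes, ALB, AFP and HNF4A among them) were present in every library, with a summed level, mostly ALB and AFP, of 5711 to 7125 FPKM in siC and 6742 to 6922 FPKM in siIGF2BP1. Within this list AHSG was at 167 ± 49.4 and 384 ± 22.4 FPKM and TF at 299 ± 89.7 and 500 ± 8.97 FPKM, neither past the threshold used below. Others had a lower mean in siIGF2BP1, among them APOB (594 ± 67.0 and 476 ± 28.5 FPKM, no overlap). TTR was at 23.0 ± 5.58 and 16.0 ± 1.67 FPKM and AFP at 3151 ± 469 and 2740 ± 71.2 FPKM, again not past the threshold, as was APOB. Markers of leukocytes (4 genes) summed to at most 0.0470 FPKM. Endothelial markers (4 genes) summed to 2.59 to 3.07 FPKM in siC and 2.86 to 3.30 FPKM in siIGF2BP1, nearly all of it PECAM1, with KDR listed at 0. Markers of stellate cells or fibroblasts (5 genes) summed to 8.93 to 9.38 and 7.46 to 8.31 FPKM, mostly LUM. Markers of bile duct cells (4 genes) summed to 65.4 to 79.7 FPKM in siC and 50.9 to 58.0 FPKM in siIGF2BP1, nearly all of it KRT19 and SOX9, with KRT7 listed at 0. SOX9 fell (log2 change -0.73, limma adjusted p = 0.00512), whereas KRT19 overlapped between groups. The part of these markers in the results was not tested. In bulk RNA, fewer cells of a type and less RNA per cell cannot be told apart. Replicate 3 of siC stood apart from the other libraries. For 14 of the 33 members tested, its log2 value lay more than 0.5 from the mean of siC replicates 1 and 2 (lower for 10, higher for 4), whereas replicates 1 and 2 differed by that much for 0 members. Log2 changes that moved by over 1.5 times without this library are therefore also given without it. Over genes, the distance of a library from the others of its group was correlated with transcript GC, with a rho of -0.43 for siC replicate 3. The rho was -0.39 for siIGF2BP1 replicate 2 and 0.0018 to 0.43 for the others. The cause was not tested.

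Members differed widely in level. GLUD1, which encodes the mitochondrial glutamate dehydrogenase, was the most abundant at 172 ± 22.0 FPKM in siC, although GLUD2 is a near-identical copy and the assignment of reads between them is uncertain. AHCY, the hydrolase of S-adenosylhomocysteine, followed at 143 ± 16.0 FPKM, and HGD, the homogentisate dioxygenase of tyrosine breakdown, was at 70.9 ± 0.925 FPKM. At the other end, 13 members had a mean under 1 FPKM over the 7 libraries and were not tested. Among these were OTC, the second enzyme of the urea cycle, at 0.721 ± 0.239 FPKM in siC and 0.848 ± 0.256 FPKM in siIGF2BP1, and all 3 members of tryptophan breakdown (TDO2, KYNU and KMO). Other enzymes of that route, not among the members, were higher, such as QPRT at 24.0 ± 1.27 FPKM in siC. TDO2, the first enzyme of the route, had 16 reads over the 7 libraries. SDS, the serine dehydratase, had 1 read in all. Of the members not tested, TAT, TDO2 and PRODH had groups that did not overlap, as did 7.86% of the 19480 genes under this limit with at least 1 read. For TDO2 this rests on 0 to 5 reads per library. TAT, the rate-limiting aminotransferase of tyrosine breakdown, was at 0.678, 0.704 and 0.941 FPKM in siC and at 1.27, 1.03, 1.13 and 0.983 FPKM in siIGF2BP1. PRODH, which begins proline breakdown, was at 0.144 ± 0.0345 FPKM in siC and 0.0695 ± 0.0296 FPKM in siIGF2BP1, with 6 to 38 reads per library.

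**Figure D1:**
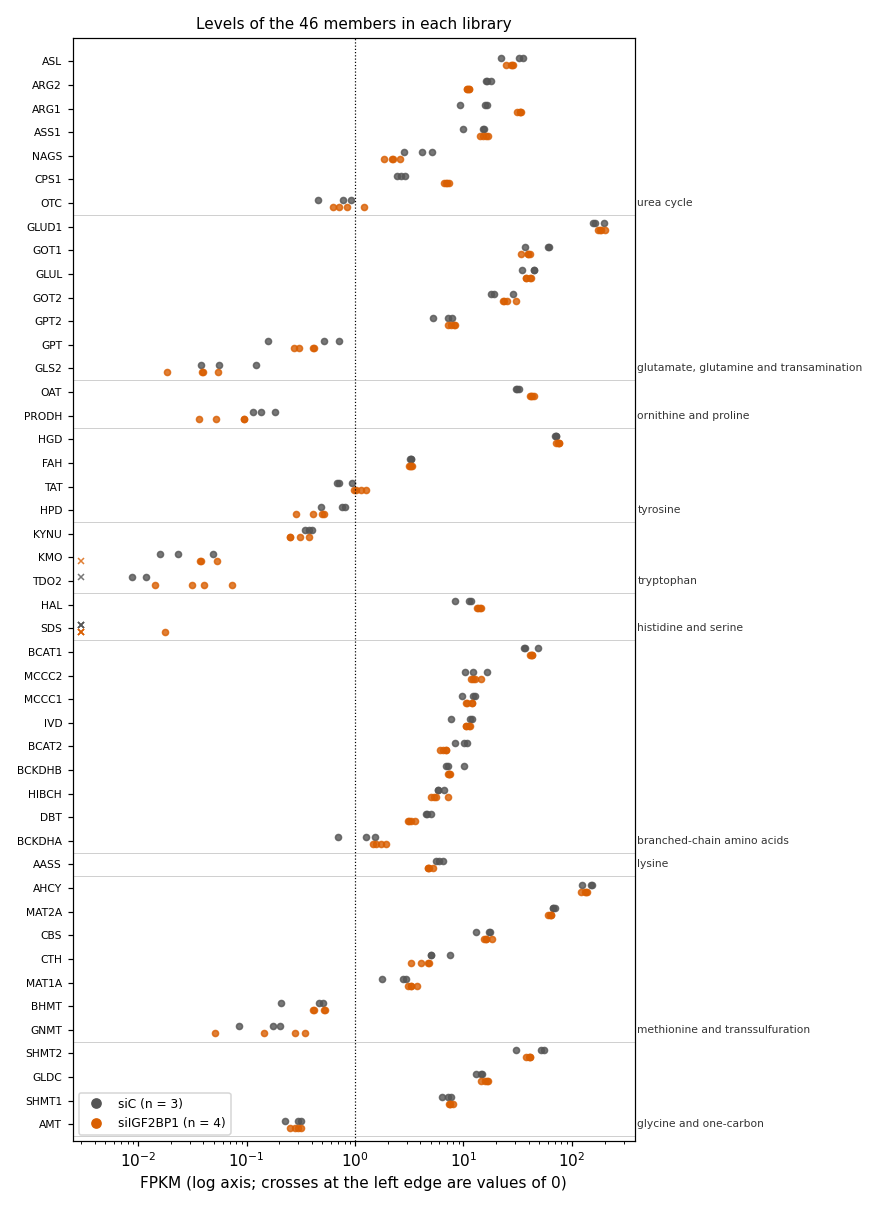
Levels of the 46 members, grouped by role, in each siC (grey) and siIGF2BP1 (orange) library, in FPKM on a log axis, with the dotted line at 1 FPKM and crosses for values of 0. Levels ran from 0 reads for SDS in most libraries to 203 FPKM for GLUD1, and the orange points of CPS1, ARG1 and OAT lie above all grey points.

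All genes whose mean reached 1 FPKM were tested with limma on log2(FPKM + 0.1), with Benjamini-Hochberg adjustment over all 14839 genes tested and a threshold of 0.01. Of the 33 members tested, 3 rose upon IGF2BP1 depletion (CPS1, ARG1 and OAT) and 2 fell (ARG2 and DBT). This was 15.2% of the members against 3.93% of all genes tested. As the members were chosen with earlier results of these data known, this contrast and those by role, zone or compartment below are descriptions only. Over all genes tested, 1.65% rose and 2.28% fell. The other 28 members did not pass the threshold. Shares of all genes tested, here and below, include genes that do not code for protein, whereas every member codes for one. The contrast was smaller in a fit of protein-coding genes alone, where 18.2% of the members and 8.16% of the genes passed. When the lower limit on level was raised to 5 FPKM, the shares were 14.8% and 5.89%. The median log2 change of the 33 members was 0.0020, beside -0.017 over all genes tested. Groups did not overlap for 13 of the 33 members (39.4%, 6 higher and 7 lower), against 27.0% of all genes tested (11.9% higher and 15.1% lower). At an unadjusted p under 0.05, limma gave 5 members higher and 6 lower, where 25.9% of all genes tested were at such a p in either direction. With limma's voom on the reads recovered from the FPKM values, the 5 members and BCAT2 (lower) passed and no other member did, where 5.67% of all genes passed. Without siC replicate 3 the same 5 members and NAGS, GOT1, BCAT2 and SHMT2 passed, all 4 lower in siIGF2BP1 (27.3% of members, against 10.3% of all genes in that fit, of which 3.60% higher and 6.67% lower). When any 1 of the other 6 libraries was dropped, 0.862% to 1.33% of all genes passed. CPS1 passed in each of these fits and ARG2 in the fit without siIGF2BP1 replicate 2, and ARG1, OAT and DBT passed in none.

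**Figure D2:**
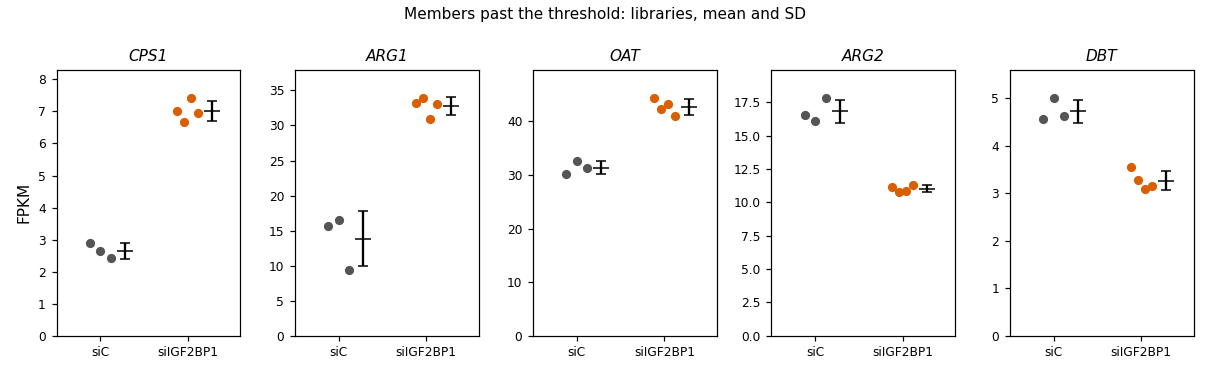
FPKM of the 5 members past the threshold in each library, with the mean and SD of each group (3 siC and 4 siIGF2BP1 libraries) in black and axes that start at 0. The siIGF2BP1 libraries lie above all siC libraries for CPS1, ARG1 and OAT and below them for ARG2 and DBT.

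Among the 6 tested members grouped with the urea cycle, 2 rose (CPS1 and ARG1) and 1 fell (ARG2, the mitochondrial arginase). This stands beside 1.65% of all genes tested that rose and 2.28% that fell. CPS1 (GRCh38 chromosome 2, 210477682 to 210679107, plus strand, 38 exons in the canonical transcript) was at 2.89, 2.63 and 2.41 FPKM in siC replicates 1 to 3 and at 7.01, 6.67, 7.41 and 6.96 FPKM in siIGF2BP1 replicates 1 to 4. All siIGF2BP1 libraries exceeded all siC libraries by more than the spread within either group. Its mean rose from 2.65 ± 0.238 FPKM to 7.01 ± 0.307 FPKM, a 2.65-fold increase (log2 change 1.38, SE 0.0822, limma adjusted p = 0.000426), with at least 347 reads per library. ARG1 (chromosome 6, 131470832 to 131584332, plus strand) was at 15.6, 16.6 and 9.35 FPKM in siC and at 33.19, 33.89, 30.88 and 33.05 FPKM in siIGF2BP1. The groups were far apart, and siC replicate 3 lay below the other siC libraries. The mean of ARG1 rose from 13.9 ± 3.93 FPKM to 32.8 ± 1.30 FPKM, or 2.36-fold (log2 change 1.28, SE 0.191, limma adjusted p = 0.00773), and the log2 change was 1.02 without siC replicate 3.

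ARG2 encodes the mitochondrial arginase, found mainly outside the liver. ARG2 (chromosome 14, 67619920 to 67651708, plus strand) was at 16.5, 16.1 and 17.8 FPKM in siC and at 11.2, 10.8, 10.9 and 11.3 FPKM in siIGF2BP1. It fell in all siIGF2BP1 libraries, to 65.6% of siC (log2 change -0.60, SE 0.0593, limma adjusted p = 0.00172). The exons of ARG2 share 39.6% of their bases with VTI1B, a gene on the other strand. The paper names a directional library kit, but the strand setting of the counting is not given in the sources used here. VTI1B was at 11.2 ± 0.956 FPKM in siC and 10.5 ± 0.273 FPKM in siIGF2BP1 (log2 change -0.084, limma adjusted p = 0.529).

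The arginases moved in opposite directions. The ratio of ARG1 to ARG2 FPKM was 0.946, 1.03 and 0.525 in siC replicates 1 to 3 and 2.97, 3.14, 2.83 and 2.91 in siIGF2BP1 replicates 1 to 4. By FPKM, the RNA of the cytosolic arginase was at most about level with that of the mitochondrial one in siC and well above it in each siIGF2BP1 library. The overlap of ARG2 with VTI1B limits these ratios as well, and protein was not measured here. The log2 ratio differed by 1.88 between the groups (two-sided exact permutation test over libraries, p = 0.0571, the smallest p that 3 against 4 libraries allow, adjusted p = 0.114 over 6 isozyme pairs). As ARG1 lay above and ARG2 below all siC libraries in siIGF2BP1, this p was fixed in advance and adds no support.

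The promoters of the arginases, CPS1 and OAT are shown because they differ widely in CpG dinucleotides, also among the members that rose. Of the 46 members, 39 matched the RefSeq promoter table (GRCh38.p14, 250 bases before to 50 bases after the start). The ARG1 window lies at the start of its canonical transcript, which is inside the gene interval given above. For CPS1 the RefSeq start lies within the gene, downstream of the start of the canonical GENCODE transcript, and the 300 bases around that other start hold 1 CpG. Each line gives the promoter of a gene, 5′ to 3′ on its own strand, with CpG dinucleotides in capitals.
CPS1 (chr2:210593105-210593404, plus strand): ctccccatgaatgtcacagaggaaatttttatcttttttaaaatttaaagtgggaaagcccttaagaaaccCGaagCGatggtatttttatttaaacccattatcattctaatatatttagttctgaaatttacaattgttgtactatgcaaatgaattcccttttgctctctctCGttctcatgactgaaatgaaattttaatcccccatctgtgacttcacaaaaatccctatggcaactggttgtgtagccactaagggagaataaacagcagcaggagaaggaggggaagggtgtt
ARG1 (chr6:131572976-131573275, plus strand): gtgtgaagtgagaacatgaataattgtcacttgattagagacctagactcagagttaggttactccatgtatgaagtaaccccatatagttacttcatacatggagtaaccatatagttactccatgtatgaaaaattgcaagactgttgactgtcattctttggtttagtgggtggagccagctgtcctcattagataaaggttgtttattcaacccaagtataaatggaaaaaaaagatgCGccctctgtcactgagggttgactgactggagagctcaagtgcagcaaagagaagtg
ARG2 (chr14:67619670-67619969, plus strand): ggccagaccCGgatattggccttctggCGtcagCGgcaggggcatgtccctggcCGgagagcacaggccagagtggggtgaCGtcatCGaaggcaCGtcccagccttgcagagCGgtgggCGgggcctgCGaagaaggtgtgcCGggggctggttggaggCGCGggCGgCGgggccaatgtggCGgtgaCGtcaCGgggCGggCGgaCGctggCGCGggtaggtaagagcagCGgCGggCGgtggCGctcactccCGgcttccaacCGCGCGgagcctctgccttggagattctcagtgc
OAT (chr10:124418874-124419173, minus strand): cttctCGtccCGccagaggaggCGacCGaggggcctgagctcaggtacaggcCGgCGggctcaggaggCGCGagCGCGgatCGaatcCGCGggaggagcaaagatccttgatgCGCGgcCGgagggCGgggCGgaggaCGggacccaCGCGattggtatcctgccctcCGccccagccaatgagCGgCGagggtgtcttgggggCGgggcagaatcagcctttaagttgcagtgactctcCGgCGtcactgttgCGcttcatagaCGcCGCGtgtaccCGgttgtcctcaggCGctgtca
The CPS1 promoter holds 3 CpG dinucleotides, that of ARG1 1, that of ARG2 31 and that of OAT 33, against a median of 14 over 35116 promoters of the same length. The letters TATAAA on the gene's strand begin 29 bases before the start of ARG1, and 7.33% of all these promoters hold them somewhere. Of the members matched, 7 of 39 hold TATAAA, and 3 of 39 (KYNU, HAL and AASS) hold TTGCNNAA on either strand, a form of the C/EBP motif found in 10.5% of all promoters. The letters CAAAGTCCA (a form of the HNF4A motif, 0.384% of promoters) and the CArG box bound by SRF (1.29% of promoters, both strands) were found in 0 of 39.

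The remaining urea cycle genes did not pass the threshold. NAGS was at 5.11, 4.16 and 2.81 FPKM in siC and 2.21, 1.83, 2.59 and 2.24 FPKM in siIGF2BP1, so that the groups did not overlap although siC replicate 3 came close (log2 change -0.80, SE 0.211, limma adjusted p = 0.0543). Its log2 change was -1.03 without siC replicate 3, where it passed the threshold. ASS1 was at 13.4 ± 3.06 FPKM and 15.6 ± 1.16 FPKM, a log2 change of 0.24 with a 95% interval of -0.14 to 0.61 (0.03 without siC replicate 3). ASL was at 30.1 ± 7.02 and 27.2 ± 1.66 FPKM, a log2 change of -0.12 with an interval of -0.50 to 0.26 (-0.32 without siC replicate 3, short of the threshold). The 8 members known as periportal in liver (CPS1, OTC, ASS1, ASL, ARG1, GLS2, HAL and SDS) included 5 tested genes, of which 2 (CPS1 and ARG1) rose and 0 fell, where 1.65% of all genes tested rose and 2.28% fell.

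OAT, which turns ornithine into glutamate semialdehyde, was the third member to rise. OAT (chromosome 10, 124397303 to 124418976, minus strand, 10 exons) was at 30.2, 32.6 and 31.3 FPKM in siC and 44.32, 42.26, 43.19 and 40.98 FPKM in siIGF2BP1. Replicate 3 of siC lay between the other siC libraries here, and the lowest siIGF2BP1 library exceeded the highest siC library. The mean of OAT rose 1.36-fold (log2 change 0.44, SE 0.0576, limma adjusted p = 0.00488). When single libraries were dropped its log2 change lay between 0.42 and 0.47, but it passed the threshold in 1 of these 7 fits. GLUL, the other member known as pericentral, was at 41.1 ± 5.85 FPKM and 39.6 ± 2.22 FPKM, a log2 change of -0.047 with an interval of -0.30 to 0.20 (-0.17 without siC replicate 3).

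**Figure D3:**
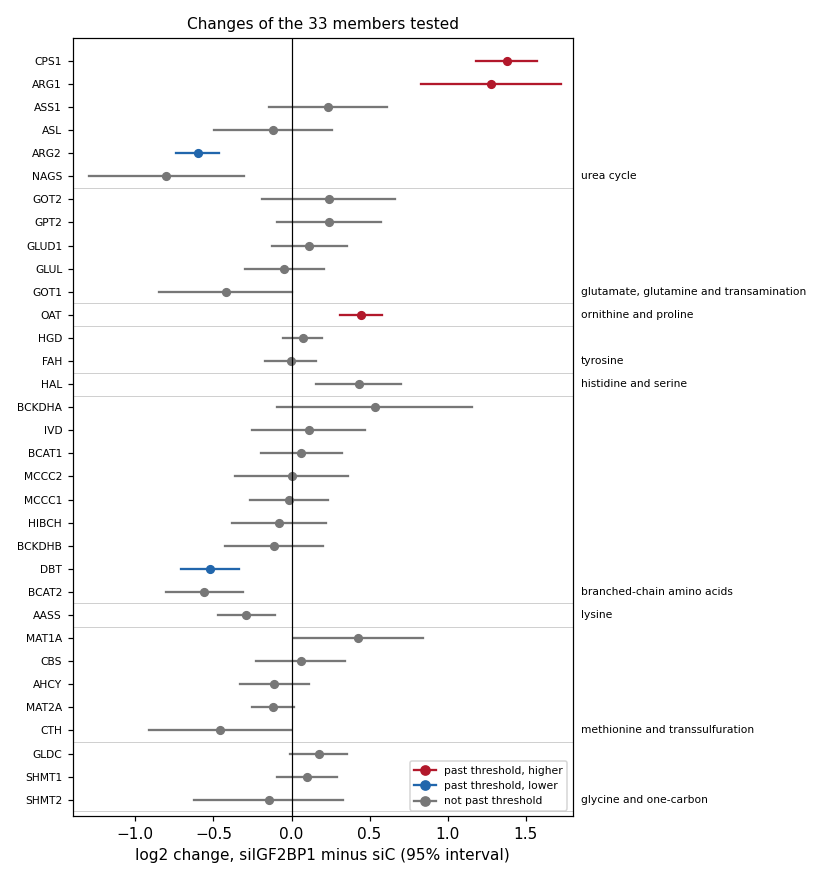
Log2 change (siIGF2BP1 minus siC, with 95% interval from limma) of the 33 members tested, grouped by role, with members past the threshold in red (higher) and blue (lower). CPS1 at 1.38 and ARG1 at 1.28 lie farthest to the right, and most other members have intervals that include 0.

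With limma, 0 of the 5 tested enzymes of glutamate metabolism and transamination passed the threshold, and 0 were at an unadjusted p under 0.05. Of all genes tested, 3.93% passed and 25.9% were at such a p. GLUD1 was at 186 ± 12.6 FPKM in siIGF2BP1, a log2 change of 0.11 with an interval of -0.13 to 0.35 (0.22 without siC replicate 3). The cytosolic aspartate aminotransferase GOT1 was at 60.8, 60.1 and 37.3 FPKM in siC and 39.1, 33.9, 39.6 and 41.4 FPKM in siIGF2BP1 (log2 change -0.42, SE 0.181, limma adjusted p = 0.197). Replicates 1 and 2 of siC lay above all other libraries, and replicate 3 lay among the siIGF2BP1 libraries. Without siC replicate 3 GOT1 passed, with -0.65 on the log2 scale. Its mitochondrial counterpart GOT2 was at 19.3, 17.8 and 28.8 FPKM in siC and 23.2, 30.5, 23.4 and 25.0 FPKM in siIGF2BP1 (log2 change 0.24, SE 0.181, limma adjusted p = 0.470). Dropping siC replicate 3 gave 0.45 on the same scale, still short of the threshold. For the alanine aminotransferases, GPT2 was at 7.81, 7.14 and 5.19 FPKM in siC and 7.73, 7.18, 8.34 and 8.11 FPKM in siIGF2BP1 (log2 change 0.24, SE 0.141, limma adjusted p = 0.348), with siC replicate 3 lowest, and 0.07 on the log2 scale without that library. GPT, the liver isozyme, was at 0.715, 0.521 and 0.158 FPKM in siC and 0.42, 0.271, 0.411 and 0.307 FPKM in siIGF2BP1, below the limit for the test. The glutaminase of liver, GLS2, had 27 reads over the 7 libraries, and most of its exons (77.1% of bases) overlap SPRYD4 on the other strand.

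All 9 members of branched-chain amino acid breakdown were tested, and 1 of them fell, where 2.28% of all genes tested fell. DBT, the core subunit of the branched-chain keto acid dehydrogenase complex, was at 4.55, 5.00 and 4.62 FPKM in siC and 3.54, 3.27, 3.09 and 3.14 FPKM in siIGF2BP1. DBT (chromosome 1, 100186919 to 100249834, minus strand) was lower in all siIGF2BP1 libraries, at 69.1% of siC (log2 change -0.52, SE 0.0797, limma adjusted p = 0.00855). The subunits that act with it in the same complex did not pass the threshold. BCKDHB was at 8.08 ± 1.79 and 7.36 ± 0.164 FPKM (log2 change -0.11, limma adjusted p = 0.666, and 0.06 without siC replicate 3). BCKDHA was at 1.17 ± 0.428 and 1.66 ± 0.206 FPKM (log2 change 0.53, limma adjusted p = 0.262, and 0.23 without siC replicate 3), and 73.8% of its exon bases are shared with another annotated gene on its strand. BCAT2, the mitochondrial aminotransferase that begins the route, was at 10.9, 10.1 and 8.36 FPKM in siC and 6.45, 6.05, 6.90 and 6.92 FPKM in siIGF2BP1. These groups did not overlap, but the adjusted p missed the threshold (log2 change -0.56, SE 0.104, limma adjusted p = 0.0169). BCAT1, the cytosolic isozyme, was the more abundant of the pair at 36.1, 37.1 and 48.8 FPKM in siC and 42.1, 42.8, 40.9 and 42.6 FPKM in siIGF2BP1 (log2 change 0.063, SE 0.109, limma adjusted p = 0.775, and 0.20 without siC replicate 3). The later enzymes IVD, MCCC1, MCCC2 and HIBCH had log2 changes between -0.08 and 0.11, none past the threshold. Without siC replicate 3 that of IVD was -0.09, that of MCCC1 -0.13, that of MCCC2 0.18 and that of HIBCH -0.02.

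In methionine metabolism and transsulfuration, 0 of 5 tested members passed with limma, where 3.93% of all genes tested did. At an unadjusted p under 0.05 were 2 of them (MAT1A and CTH), as were 25.9% of all genes tested. The pair of S-adenosylmethionine synthetases was dominated by MAT2A, the form of extrahepatic and dividing cells, at 67.1, 67.3 and 70.1 FPKM in siC and 62.2, 59.8, 64.5 and 64.6 FPKM in siIGF2BP1 (log2 change -0.12, SE 0.0572, limma adjusted p = 0.247). MAT1A, the form of adult liver, was at 2.74, 2.95 and 1.79 FPKM in siC and 3.72, 3.27, 3.07 and 3.26 FPKM in siIGF2BP1 (log2 change 0.43, SE 0.176, limma adjusted p = 0.180). Neither pair of groups overlapped, yet neither gene passed the threshold, and the log2 change of MAT1A was 0.22 without siC replicate 3. MAT2A shares 12.5% of its exon bases with GGCX on the other strand, which was at 15.3 ± 1.52 and 13.8 ± 0.252 FPKM. CTH, which forms cysteine from cystathionine, was at 5.03, 5.00 and 7.58 FPKM in siC and 4.69, 4.84, 3.28 and 4.02 FPKM in siIGF2BP1 (log2 change -0.46, SE 0.193, limma adjusted p = 0.189), and siC replicate 3 was the highest library, without which its log2 change was -0.26. CBS and AHCY had log2 changes of 0.058 and -0.11 (-0.09 and -0.21 without siC replicate 3), while BHMT and GNMT were under 1 FPKM in every library.

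By the compartment of the enzyme, 18 of 23 mitochondrial members were tested, of which 2 rose (CPS1 and OAT) and 2 fell (ARG2 and DBT). Of 23 cytosolic members 15 were tested, of which 1 (ARG1) rose and 0 fell. Over all genes tested 3.93% passed, with 1.65% higher and 2.28% lower, and the counts of the compartments were not compared by a test.

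Among the isozyme pairs, the ratio of MAT1A to MAT2A ranged from 0.0255 to 0.0439 in siC and from 0.0476 to 0.0599 in siIGF2BP1. The ratio of BCAT2 to BCAT1 ranged from 0.171 to 0.302 in siC and from 0.142 to 0.169 in siIGF2BP1. Together with the arginases, these were the 3 of 6 pairs whose groups did not overlap, each with an exact permutation p of 0.0571 (two-sided). For the arginases and for MAT1A with MAT2A, the genes themselves did not overlap, in opposite directions. Their ratios therefore could not overlap and are no separate support. The share of other gene pairs without overlap was not computed. For BCAT2 to BCAT1 the gap between the nearest libraries was small, and siC replicate 3 was the siC library closest to the siIGF2BP1 libraries. The ratios of GPT to GPT2, GOT1 to GOT2 and SHMT1 to SHMT2 overlapped between groups (exact permutation p = 0.286, 0.229 and 0.229).

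**Figure D4:**
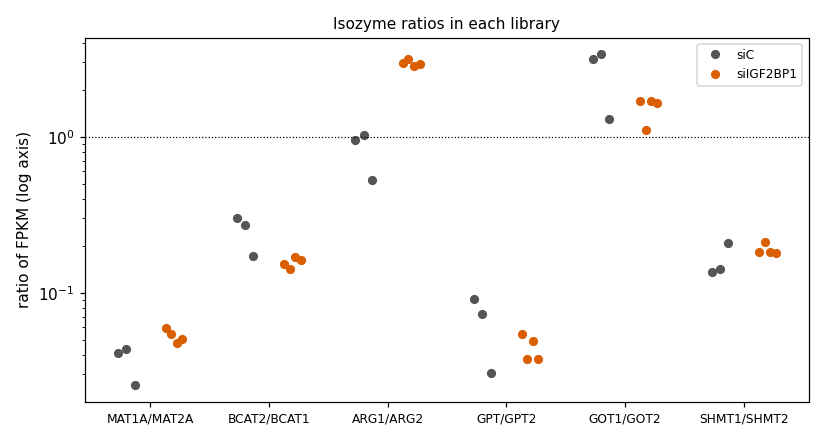
Ratio of the FPKM of isozyme pairs in each siC (grey) and siIGF2BP1 (orange) library, on a log axis with the dotted line at equal levels. The ARG1/ARG2 ratio lies between 0.525 and 1.03 in siC and between 2.83 and 3.14 in siIGF2BP1, and the other 5 pairs shift less.

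Of the enzymes of glycine cleavage and serine hydroxymethyl transfer, 0 of 3 tested passed with limma, and 0 were at an unadjusted p under 0.05. The shares of all genes tested were 3.93% and 25.9%. SHMT2, the mitochondrial serine hydroxymethyltransferase, was at 55.8, 51.6 and 30.2 FPKM in siC and 40.8, 37.9, 39.9 and 41.5 FPKM in siIGF2BP1 (log2 change -0.15, SE 0.203, limma adjusted p = 0.713). The siIGF2BP1 libraries lay between siC replicate 3 and the other siC libraries, and without siC replicate 3 SHMT2 passed, with -0.42 on the log2 scale. The cytosolic SHMT1 was at 7.63, 7.27 and 6.30 FPKM in siC and 7.44, 7.95, 7.29 and 7.48 FPKM in siIGF2BP1 (log2 change 0.096, SE 0.0816, limma adjusted p = 0.527, and 0.02 without siC replicate 3). GLDC, which carries out the decarboxylation step of glycine cleavage, was at 14.1 ± 0.962 and 15.9 ± 1.00 FPKM (log2 change 0.18, limma adjusted p = 0.210). AMT, of the same system, was at 0.281 ± 0.0480 and 0.286 ± 0.0278 FPKM, and 62.6% of its exon bases are shared with an annotated gene on its strand.

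Of the enzymes for single amino acids, HAL, the histidine ammonia-lyase, was at 11.7, 11.2 and 8.44 FPKM in siC and 14.3, 13.6, 13.4 and 14.5 FPKM in siIGF2BP1. The groups did not overlap, without passing the threshold (log2 change 0.43, SE 0.116, limma adjusted p = 0.0589, and 0.28 without siC replicate 3). AASS, which begins lysine breakdown, was at 5.64, 5.90 and 6.41 FPKM in siC and 4.70, 4.80, 4.72 and 5.29 FPKM in siIGF2BP1, again without overlap and short of the threshold (log2 change -0.29, SE 0.0769, limma adjusted p = 0.0559). The tyrosine enzymes HGD and FAH were measured with small spread. HGD was at 70.9 ± 0.925 and 74.5 ± 1.74 FPKM (log2 change 0.07, interval -0.05 to 0.19), with groups that did not overlap, and FAH at 3.26 ± 0.0269 and 3.25 ± 0.0961 FPKM (log2 change -0.0046, interval -0.17 to 0.16). HPD, between TAT and HGD in this route, was at 0.689 ± 0.174 and 0.428 ± 0.105 FPKM and was not tested.

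**Figure D5:**
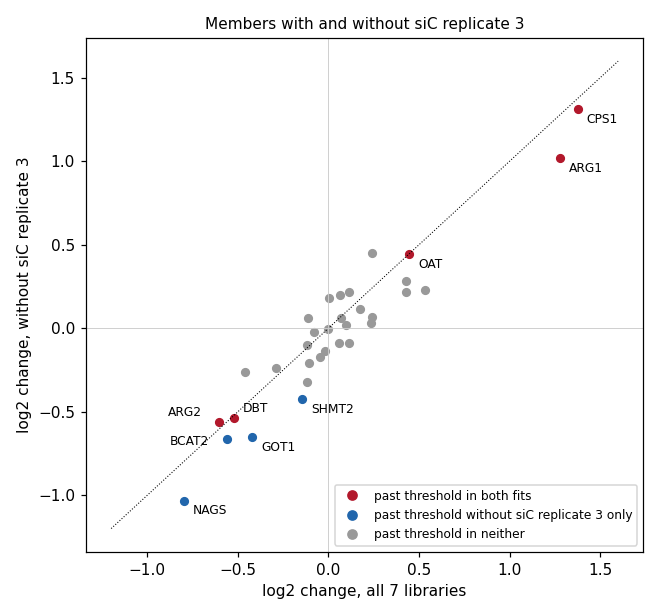
Log2 change of the members with all 7 libraries (x axis) and without siC replicate 3 (y axis), with the dotted line at equal values. The 5 members in red passed the threshold in both fits, and NAGS, GOT1, BCAT2 and SHMT2, in blue, passed only without that library and lie below the line.

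A further 83 genes of the same routes were examined from a list written from general knowledge, with earlier results of these data known. Of these, 64 were tested. ALDH8A1 reached the limit for the test only through siIGF2BP1 and is given by its values alone. Of the other 63, 1 rose (GATM) and 3 fell (ACADSB, MTR and QDPR), or 6.35% against the 3.93% of all genes tested. GATM, the glycine amidinotransferase that takes its amidino group from arginine, was at 10.9, 10.9 and 10.4 FPKM in siC and 17.6, 16.7, 16.9 and 17.1 FPKM in siIGF2BP1. The libraries of each group lay close together, and GATM rose 1.59-fold (log2 change 0.66, SE 0.0534, limma adjusted p = 0.000917), and it passed whichever of the 7 libraries was dropped. ALDH8A1, a dehydrogenase of the kynurenine route, was at 0.687, 1.16 and 0.836 FPKM in siC and 4.62, 4.78, 4.84 and 4.97 FPKM in siIGF2BP1, with no overlap. ACADSB, the dehydrogenase of the isoleucine route, fell from 25.9 ± 1.16 to 18.9 ± 0.620 FPKM (log2 change -0.45, limma adjusted p = 0.00503). MTR, the methionine synthase, fell from 10.5 ± 0.139 to 7.40 ± 0.439 FPKM (log2 change -0.50, limma adjusted p = 0.00508). QDPR, which regenerates tetrahydrobiopterin for phenylalanine hydroxylation, fell from 22.0 ± 1.67 to 15.6 ± 0.916 FPKM (log2 change -0.49, limma adjusted p = 0.00970). When single libraries were dropped, these 3 falls passed only where siC replicate 3 was the one left out.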

How the data were processed

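Total RNA of Huh-7 cells was sequenced in 3 siC and 4 siIGF2BP1 libraries. Per the submitters' processing notes, the authors used cutadapt 1.14, HISAT2 2.1.0, SAMtools 1.5, featureCounts 1.5.3 and edgeR 3.18.1, and the deposited table gives 1 FPKM value per gene and library. The table also holds gene lengths and the authors' own log2 fold changes, p-values and FDR, which were not used. The paper names a directional library kit, but whether counting used strand is not given in the sources used here. The FPKM values were whole multiples of 1 read (100% of values examined, within 0.01 reads), which gave the reads behind each value.

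Genes whose mean over libraries reached 1 FPKM were tested on log2(FPKM + 0.1), a scale that understates changes of low genes, with limma 3.58.1 (R 4.3.3, with trend), two-sided, with Benjamini-Hochberg adjustment over all genes tested and a threshold of 0.01. Log2 changes are siIGF2BP1 minus siC and 95% intervals are limma's, from the spread between libraries. Isozyme ratios were compared by exact permutation over libraries. The fit was tested on simulated reads with the same dispersion for all genes and no deviant library, unlike these data. All 46 members were accounted for, and per-library values were given for members past the threshold, at an unadjusted p under 0.05 or in an isozyme pair. Of other pathway genes, those past the threshold were named. Members and lists were chosen with earlier results of these data known. Alternatives covered pseudocount, filters, scaling, weights, GC content, read-based tests and left-out libraries. Positions are from GENCODE v44 (GRCh38) and promoters from RefSeq (GRCh38.p14).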

Additional observations from a re-analysis of the deposited data

Results flagged for a closer look

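AASS in siIGF2BP1 replicate 4 was at 5.29 FPKM, whereas the other 3 siIGF2BP1 libraries were at 4.70 to 4.80 FPKM. The gap to the nearest library took 0.834 of the range of the group, above Dixon's 95% critical value for 4 samples. Among 25 genes looked at this was the 1 case, where chance gives 1.25. The library still lay below all siC libraries for AASS.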

How the results depend on the processing

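Leaving out 1 library at a time gave 1 to 3 members higher and 0 to 6 lower, beside 66 to 533 higher and 53 to 988 lower over all genes and 0 to 8 of the other pathway genes lower, with the highest counts without siC replicate 3. Without siC replicate 3 and siIGF2BP1 replicate 2 together, a setting chosen after the data were seen, 5 members were lower, 563 genes were higher and 1043 lower over all genes, and 4 other pathway genes were higher and 7 lower. With a replicate block 0 members, 0 other pathway genes and 0 genes in all passed in either direction. IGF2BP1 itself did not pass in that fit either (log2 change -2.36, limma adjusted p = 0.0909). Same-numbered libraries did not deviate together (correlations of -0.0263, -0.118 and -0.111), which does not settle whether the numbers pair the libraries.

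With array weights, a fit that stopped before reaching its tolerance, 7 members were higher and 10 lower, with 2169 and 3245 over all genes and 10 and 23 of the other pathway genes. Without the filter 1 member was lower, with 146 genes higher and 206 lower in all and 1 other pathway gene lower. With a mean of at least 5 FPKM 1 member was lower and 1 other pathway gene higher, and with median centring 1 member was lower. Removing the GC trend gave 461 genes higher in all and 5 other pathway genes lower, voom on recovered reads 5 other pathway genes lower, and protein-coding genes only 511 genes lower in all and 6 other pathway genes lower. At a threshold of 0.05, 703 genes were higher and 1010 lower in all, with 6 and 9 of the other pathway genes. ARG1 lost its call without the filter (limma adjusted p = 0.0166) and without the limma trend (0.0116). DBT lost its call without the filter (0.01996), with median centring (0.0103) and with the GC trend removed (0.0102). With the GC trend removed, BCAT2 (limma adjusted p = 0.000901) and NAGS (0.00942) passed, both lower, where 6.52% of all genes passed. BCAT2 also passed among protein-coding genes only (0.00831), where 8.16% of the genes did. Of 20 alternatives each, CPS1 passed in 19, ARG2 in 14, OAT in 13 and ARG1 in 11, and DBT passed in 8 of 19. The cause of these differences was not tested.

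With single libraries left out, the log2 change of BCAT1 ran from -0.0159 (without siC replicate 1) to 0.20 and that of SHMT2 from -0.42 (without siC replicate 3) to 0.019 (without siC replicate 1). That of SHMT1 was up to 0.15 without siC replicate 1 and was -0.0089 without siC replicate 3 and siIGF2BP1 replicate 2. The 13 members under 1 FPKM were left out by level, and some of them (KYNU with 782 reads in all, TAT with 650) had more reads than BCKDHA, which was tested with 497.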

Other observations

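Genes were also grouped by the CpG dinucleotides in the 300 bases around the start of their canonical transcript, a grouping chosen after the values of the members were seen. Of the genes tested, 99.1% had such a window. Among 2272 genes with at most 4 CpG, 2.29% rose and 0.924% fell, with a median log2 change of 0.07. Among 12438 genes with more, 1.54% rose and 2.55% fell, with a median of -0.026. The 4 tested members with at most 4 CpG (CPS1, ARG1, HAL and MAT1A) had log2 changes above 0, as did 13 of the 29 other tested members. Over all genes 56.5% of those with at most 4 CpG and 45.3% of the others were above 0. Without siC replicate 3, 4.05% of the genes with at most 4 CpG rose and 1.96% fell, against 3.52% and 7.57% of the others. No test was made of this grouping, and it is not given for the fit with the GC trend removed. Distances of libraries from the others of their group were correlated with transcript GC (rho from -0.43 in siC replicate 3 to 0.43 in siC replicate 1). Whether this bears on the grouping was not tested.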
